A study of Ictidomys tridecemlineatus with 15 samples.

Results

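A group of 9 genes that mark oligodendrocytes and their precursors was followed through the hibernation cycle in the supraoptic nucleus of the thirteen-lined ground squirrel (Ictidomys tridecemlineatus). They were taken by symbol (Olig1, Olig2, Sox10, Myrf, Gpr17, Bcas1, Neu4, Pdgfra and Cspg4), and all 9 were present among the 16993 genes of the deposited table. The supraoptic nucleus is a hypothalamic cell group whose large neurons release vasopressin and oxytocin. It was cut by hand from coronal brain slices, so RNA of neurons, glia and vessel cells was sequenced together. The 15 libraries came from 3 states with 5 biological replicates each. Active animals were not hibernating, torpid animals were in the cold, inactive phase of hibernation, and animals in interbout arousal (IBA) were hibernating but between bouts of torpor. The labels give the state of each library and no treatment, genotype, age or body temperature, and they do not name the animal behind each library.

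Oligodendrocytes form the myelin sheath around axons. They arise from precursor cells that persist in the adult brain, which carry the growth factor receptor Pdgfra and the proteoglycan Cspg4 (NG2) and can still divide. In rodents a precursor that commits to differentiation loses Pdgfra and Cspg4, passes through a short stage marked by Gpr17, Bcas1 and Neu4, and then switches on myelin genes under the control of Myrf. Olig1, Olig2 and Sox10 are transcription factors present along much of this lineage, from precursor to myelinating cell.

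Levels are normalised CPM, that is, counts scaled to a common library size and by a further factor per library. Between 15844561 and 26113341 reads per library were recovered from these values, with more in torpor (at least 21570371) than in the active state (at most 21216931). A log2 fold change here is the difference between 2 state means of log2(value + 1), given ± its standard error. It was tested by limma-trend, with p adjusted over the 15501 genes that reached a value of 1 in 5 or more libraries. All 9 genes passed this filter. Neu4 did so only through IBA and torpor libraries, as its active values were 0.181 to 0.814. The log2(value + 1) scale understates changes of low genes, which concerns Neu4 most. Neuron markers were present in every library, with a summed level of 4238 to 5670 for 10 genes, and vasopressin and oxytocin are not analysed here. In such bulk samples a change in the number of cells of a type and a change in RNA per cell cannot be told apart.

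The first comparison set the cold phase of hibernation against the active state. Olig1, Olig2, Bcas1 and Neu4 were higher in torpor, with mean levels 3.69, 3.13, 3.02 and 5.83 times those of the active state (n = 5 per state). Pdgfra and Cspg4, the precursor genes, stood at 1.16 and 1.41 times and did not pass the test, nor did Sox10, Myrf and Gpr17. Thus 4 of the 9 genes passed as higher and none as lower, where 9.73% of all genes tested passed as higher and 9.74% as lower. Neu4 is 1 of the 4 and met the filter only through IBA and torpor libraries. By edgeR 4 passed, against 10.2% of all genes called higher, and by DESeq2 6, against 12.3%. The median log2 fold change of the 9 was 0.94, and that of all genes tested was 0.01. Torpor libraries 4 and 5 were the highest for each of the 4 called genes and also in mature myelin markers, and without them 3 of the 9 passed, where 7.09% of all genes tested were called higher. The torpor and IBA comparisons with the active state share the same 5 active libraries.

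**Figure D1:**
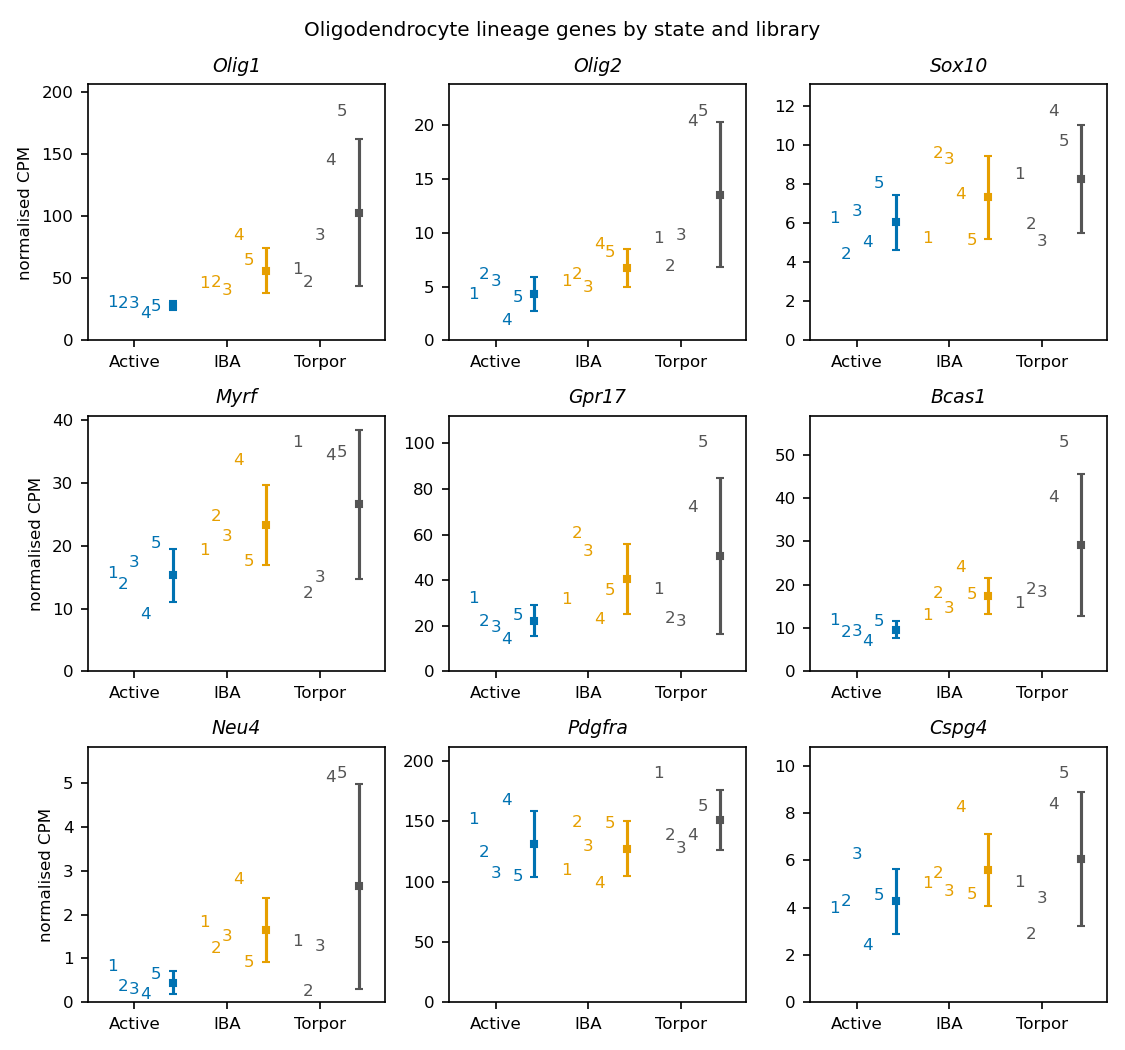
Normalised CPM of the 9 genes in each library (y axes, linear, from 0), grouped by state (x axis). Digits are the replicate numbers of the libraries and squares with bars the mean ± SD (n = 5). Torpor libraries 4 and 5 are the highest of all 15 for Olig1, Olig2, Sox10, Gpr17, Bcas1, Neu4 and Cspg4, whereas Pdgfra varies between 98.5 and 189 with no separation of the states.

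The basic helix-loop-helix factor Olig1 had mean levels of 28 in the active state, 56.3 in IBA and 103 in torpor. Active libraries 1 to 5 stood at 30.2, 30.1, 30.1, 21.9 and 27.5 normalised CPM. The IBA libraries stood at 45.5, 47.0, 40.4, 84.4 and 64.4. The torpor libraries stood at 57.0, 46.3, 84.4, 145 and 184. Every IBA and every torpor library lay above all 5 active libraries, while IBA and torpor overlapped. Between torpor and the active state the log2 fold change was 1.66 ± 0.32 (limma adjusted p = 0.00324). Torpor libraries 4 and 5 carried part of this, and without them the change was 1.10 ± 0.22 (adjusted p = 0.00701).

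Olig2, which is needed to specify the lineage and is the coding neighbour of Olig1 in the reference gene order, was measured at lower read numbers, from 31 to 453 per library. Its active libraries stood at 4.25, 6.09, 5.42, 1.87 and 3.94, and its IBA libraries at 5.45, 6.07, 4.92, 8.92 and 8.13. The torpor libraries stood at 9.43, 6.83, 9.78, 20.3 and 21.2, all above the active libraries. The libraries of 3 genes, Olig1, Olig2 and Bcas1, separated in this way, as did 5.41% of all genes tested. For Olig2, IBA overlapped with both other states. In torpor Olig2 rose by 1.39 ± 0.29 against the active state (limma adjusted p = 0.00409), and by 0.91 ± 0.26 without torpor libraries 4 and 5 (adjusted p = 0.0317).

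Sox10, the partner of Olig2 in activating myelin genes, did not pass. Its means were 6.05 ± 1.42 in the active state, 7.33 ± 2.12 in IBA and 8.27 ± 2.78 in torpor (SD, n = 5), and the 3 ranges overlapped. The log2 fold change in torpor was 0.36 ± 0.22, with a 95% interval of −0.10 to 0.83 (limma adjusted p = 0.266). The interval includes 0, and it also includes changes as large as that measured for Myrf.

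Myrf, the membrane-bound factor that turns on the myelin programme, split the torpor libraries into separate levels. Torpor libraries 1, 4 and 5 stood at 36.4, 34.4 and 34.8, whereas libraries 2 and 3 stood at 12.4 and 14.9, inside the active range of 9.05 to 20.3. The IBA libraries lay between 17.5 and 33.6. The log2 fold change in torpor was 0.67 ± 0.29 (limma adjusted p = 0.119). It passed in DESeq2 (0.80, adjusted p = 0.0262), and in limma without torpor library 2 (0.90, adjusted p = 0.0246).

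Among the genes of committed precursors, Bcas1 behaved most like Olig1. It encodes a protein of early myelinating oligodendrocytes. Active libraries stood at 11.7, 8.96, 9.13, 6.88 and 11.6, IBA libraries at 12.8, 17.9, 14.6, 24.0 and 17.7, and torpor libraries at 15.7, 18.8, 18.3, 40.2 and 52.7. All IBA and torpor libraries again lay above the active ones. Bcas1 rose by 1.36 ± 0.28 in torpor (limma adjusted p = 0.00409), and by 0.82 ± 0.19 without torpor libraries 4 and 5 (adjusted p = 0.0135).

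Neu4, a sialidase that trims sialic acid from glycoproteins and gangliosides, was the rarest of the 9 genes by reads. Only 3 to 18 reads were counted per active library, against 20 to 60 in IBA and 5 to 113 in torpor. Its levels were 0.814, 0.351, 0.293, 0.181 and 0.626 in active libraries and 1.83, 1.22, 1.49, 2.79 and 0.918 in IBA. In torpor they were 1.38, 0.246, 1.27, 5.12 and 5.20. IBA lay wholly above the active state, whereas torpor library 2 fell inside the active range. Neu4 reached a value of 1 only in IBA and torpor libraries, so it met the filter through the states where it was higher. Its call and separation are therefore not independent of the filter. The log2 fold change in torpor was 1.08 ± 0.36 (limma adjusted p = 0.0431, or 0.0466 with no filter). This call ended without any of the 5 active libraries or without torpor library 4 or 5, with adjusted p from 0.0524 to 0.108. It also ended with a pseudocount of 5 and with only the 10 libraries compared (adjusted p = 0.0556 and 0.0856). Without torpor libraries 4 and 5 together the change was 0.39 ± 0.26 (adjusted p = 0.313).

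Gpr17, a G protein-coupled receptor that holds precursors at the committed stage, followed another order of libraries. Its IBA libraries 2 and 3 stood at 60.6 and 52.4, above libraries 1, 4 and 5 at 31.5, 22.9 and 35.3, although IBA library 4 was the highest of its state for Olig1, Olig2, Myrf, Bcas1, Neu4 and Cspg4. In torpor, libraries 4 and 5 stood at 71.8 and 100.2 and the others at 35.8, 23.2 and 21.7. The active libraries ranged from 13.8 to 31.9, so that all states overlapped. The log2 fold change in torpor was 0.94 ± 0.40 (limma adjusted p = 0.114). DESeq2 called it (1.18, adjusted p = 0.0345), and without torpor libraries 4 and 5 the change was 0.28 ± 0.30 (adjusted p = 0.569). In the reference gene table the span of the Gpr17 locus overlaps that of Lims2. Whether their exons overlap, or reads of one were counted for the other, was not tested. Lims2 itself stood at 27.4 ± 3.06 in the active state and 23.9 ± 9.39 in torpor (−0.27 ± 0.22, adjusted p = 0.429).

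Pdgfra, the receptor through which PDGF-A keeps precursors dividing, was the steadiest member. Active libraries stood at 151, 124, 107, 167 and 104, IBA libraries at 109, 149, 129, 98.5 and 148, and torpor libraries at 189, 138, 127, 138 and 162. With 1658 to 4386 reads per library, counting error was small. The log2 fold change was 0.22 ± 0.15 in torpor against active, with a 95% interval of −0.10 to 0.53, and −0.04 ± 0.15 in IBA, with an interval of −0.35 to 0.28 (limma adjusted p = 0.331 and 0.919). Active library 4 was the highest of its state for Pdgfra and the lowest for 7 of the other 8 genes, all but Sox10. Fibroblasts of the meninges and vessels also carry Pdgfra, and the summed level of 7 fibroblast markers was 505 in active library 4, against 29.9 to 162 in the other 14 libraries. The part of these cells in the Pdgfra level was not tested. Without active library 4 the log2 fold change in torpor was 0.31 (limma adjusted p = 0.161). The ligand Pdgfa stood at 33.0 ± 3.10 in active, 31.6 ± 3.12 in IBA and 36.8 ± 5.94 in torpor, and did not pass.

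Cspg4, the NG2 proteoglycan on the surface of precursors, had 40 to 206 reads per library. Active libraries stood at 3.98, 4.27, 6.25, 2.41 and 4.51, IBA libraries at 5.04, 5.46, 4.67, 8.23 and 4.54, and torpor libraries at 5.08, 2.85, 4.38, 8.34 and 9.65. The states overlapped throughout. The log2 fold change in torpor was 0.36 ± 0.26, with a 95% interval of −0.18 to 0.90 (limma adjusted p = 0.342), and it was −0.04 ± 0.24 without torpor libraries 4 and 5 (adjusted p = 0.940). Pericytes carry Cspg4 too. The summed level of 10 mural cell markers was between 398 and 509 in the active state, 370.4 and 589 in IBA, and 211 and 455 in torpor. It was lowest in torpor library 2, the library with the least Cspg4 in torpor, and the part of these cells in the Cspg4 level was not tested. Pdgfrb, the pericyte receptor of the same family as Pdgfra, stood at 25.3 ± 4.13 in active, 41.9 ± 11.2 in IBA and 30.0 ± 14.4 in torpor and did not pass.

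**Figure D2:**
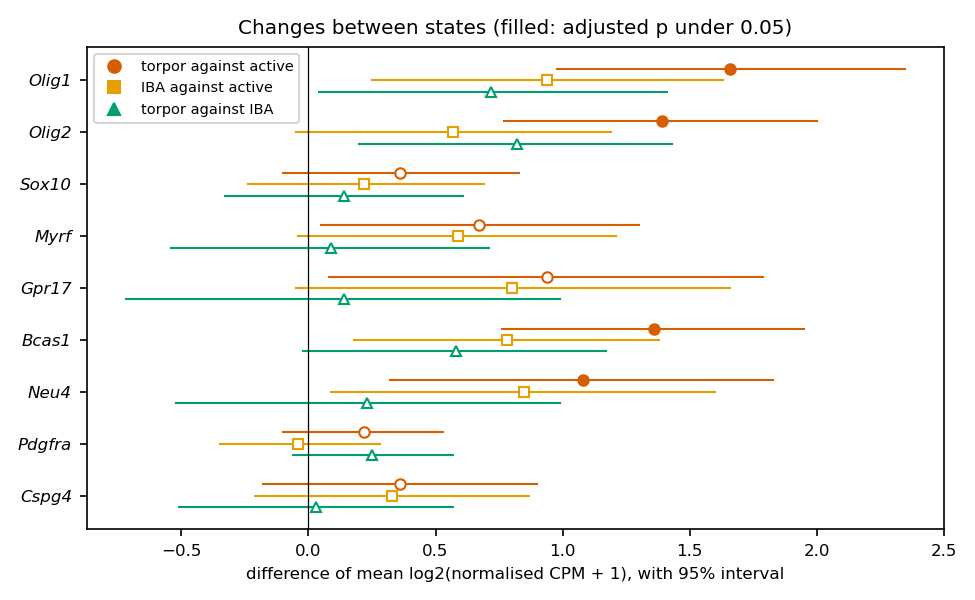
Differences of mean log2(normalised CPM + 1) between states (x axis) for each gene (y axis), with 95% intervals from limma-trend. Filled symbols passed an adjusted p of 0.05. The 4 filled symbols are Olig1, Olig2, Bcas1 and Neu4 in torpor against active, and no symbol is filled in the other comparisons.

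IBA was compared with the active state to see which changes are present during hibernation while the animal is between torpor bouts. None of the 9 genes passed in limma-trend over all 15 libraries, where 0.600% of all genes tested passed as higher and 0.703% as lower. At an unadjusted p under 0.05 there were 3 (Olig1, Bcas1 and Neu4), beside 3046 of the 15501 genes tested, and edgeR and DESeq2 called none, against 0.645% and 2.76% of all genes called higher. DESeq2 gave no adjusted p for Neu4. The log2 fold changes were 0.94 ± 0.32 for Olig1, 0.78 ± 0.28 for Bcas1 and 0.85 ± 0.36 for Neu4 (limma adjusted p = 0.135, 0.147 and 0.205). For the same 3 genes every IBA library lay above every active library, a separation seen in 3.56% of all genes tested. Among the 3, Neu4 met the filter only through IBA and torpor libraries.

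Whether members passed in IBA differed with the libraries that entered the fit. The median SD of log2 levels over the 9 genes was 0.30 in active, 0.35 in IBA and 0.72 in torpor, while over all genes tested it was 0.22, 0.20 and 0.25. With only the 10 active and IBA libraries in the fit, Olig1, Bcas1 and Neu4 passed with the same changes (limma adjusted p = 0.0238, 0.0410 and 0.0451), where 1.31% of all genes tested were called higher. Calls over all genes rose as well, from 202 to 385. With torpor libraries 4 and 5 left out, Olig1 and Bcas1 passed in IBA (adjusted p = 0.0300 and 0.0310), where 1.06% of genes were called higher. The other 19 of 21 alternatives called none of the 9 in IBA.

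Torpor was compared with IBA to separate the cold phase from hibernation as such. None of the 9 genes passed in limma-trend or edgeR, where 0.961% of all genes tested passed as higher and 1.97% as lower in limma-trend, and 1.06% as higher in edgeR. At an unadjusted p under 0.05 there were 2, Olig1 (0.72 ± 0.32, adjusted p = 0.233) and Olig2 (0.82 ± 0.29, adjusted p = 0.131), beside 3012 of the 15501 genes tested, a share close to that of the members. DESeq2 called 1, against 2.78% of all genes called higher. This was Olig2, higher by 1.01 on the log2 scale (DESeq2 adjusted p = 0.0318). For no member did the torpor libraries all lie above those of IBA, a separation seen in 1.90% of all genes tested, and without torpor libraries 4 and 5 the changes of Olig1 and Olig2 were 0.16 and 0.34. In the authors' deposited table, which tests the 3 states jointly, 4 of the 9 genes have a false discovery rate under 0.05, as have 14.6% of all genes. They are Olig1 (0.00320), Olig2 (0.00879), Bcas1 (0.00716) and Neu4 (0.0339).

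Several members shared their highest and lowest libraries. Torpor libraries 4 and 5 were the highest pair of all 15 libraries for 7 of the 9 genes. The exceptions were Myrf, which was highest in torpor library 1, and Pdgfra. At the other end, active library 4 was the lowest of all 15 for 7 genes. IBA library 4 was the highest of its state for 6, but the lowest of its state for Gpr17 and Pdgfra. The same libraries stood apart over all genes tested. On the first principal component, the main axis of variation, active library 4 was lowest at −51.1. Torpor libraries 4 and 5 were highest there, at 39.3 and 34.9. The share of all genes with these highest and lowest libraries was not computed.

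**Figure D3:**
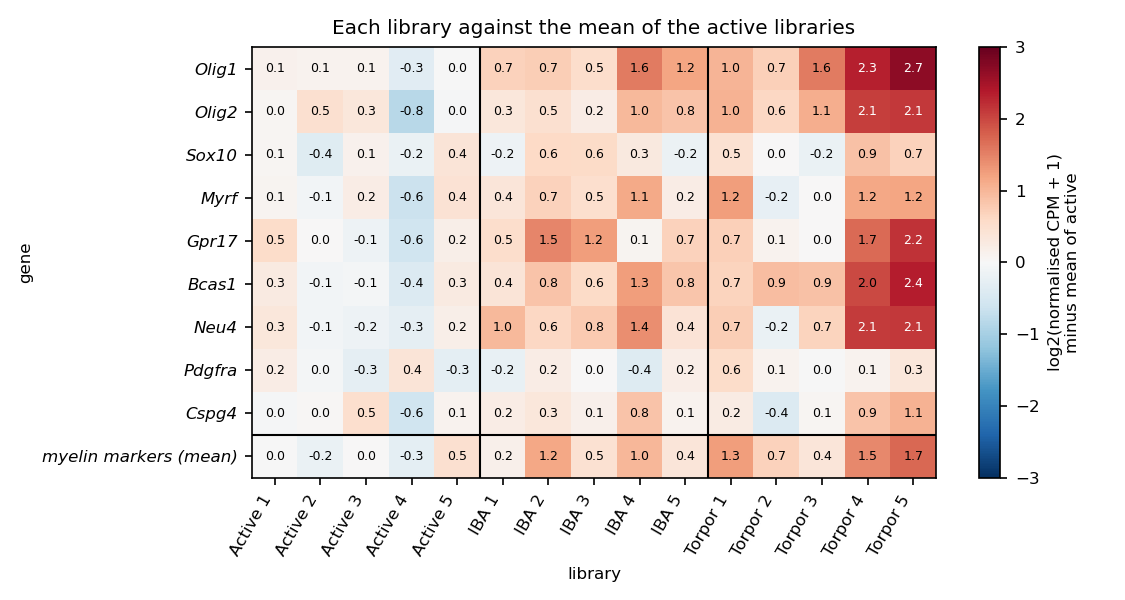
Level of each gene (rows) in each library (columns) as log2(normalised CPM + 1) minus the mean of the 5 active libraries, with the mean of 12 mature myelin markers in the bottom row. Red is higher and blue lower than the active mean. Torpor libraries 4 and 5 are the reddest columns for most genes and for the myelin markers, and the Pdgfra row stays pale.

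Myelin markers of mature oligodendrocytes moved in the same direction. Of 12 measured, 9 rose in torpor against active and none fell, where 9.73% of all genes tested passed as higher and 9.74% as lower. The median log2 fold change of the 12 was 1.22. Opalin rose by 1.56 ± 0.29, Cldn11, the tight junction protein of myelin, by 1.71 ± 0.35, and Gjb1, a gap junction protein, by 1.24 ± 0.29 (limma adjusted p = 0.00244, 0.00434 and 0.00798). The summed level of the 12 was between 2994 and 5375 in the active state, 3671 and 9523 in IBA, and 4328 and 14629 in torpor. It was highest in torpor libraries 4 and 5, at 12327 and 14629. Their mean log2 level had a range of 6.42 to 7.21 when active, whereas IBA libraries spanned 6.87 to 7.88 and torpor libraries 7.08 to 8.44. Without torpor libraries 4 and 5, 3 of the 12 passed, where 7.09% of all genes tested were called higher.

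With that mean log2 level as a covariate in the model, none of the 9 genes passed in torpor against active in limma-trend, where 2.46% of all genes tested were called higher. Olig1 kept a log2 fold change of 0.94 ± 0.43, Olig2 of 0.68 ± 0.39 and Bcas1 of 0.45 ± 0.31 (adjusted p = 0.205, 0.305 and 0.401). The changes of Neu4 and Pdgfra were 0.10 ± 0.44 and 0.18 ± 0.23. Those of Sox10, Myrf, Gpr17 and Cspg4 turned negative, between −0.44 and −0.20, and did not pass. Pdgfra had nearly the same value as without the covariate. The state and the marker level are partly bound together in these libraries, so their shares in the changes cannot be told apart.

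**Figure D4:**
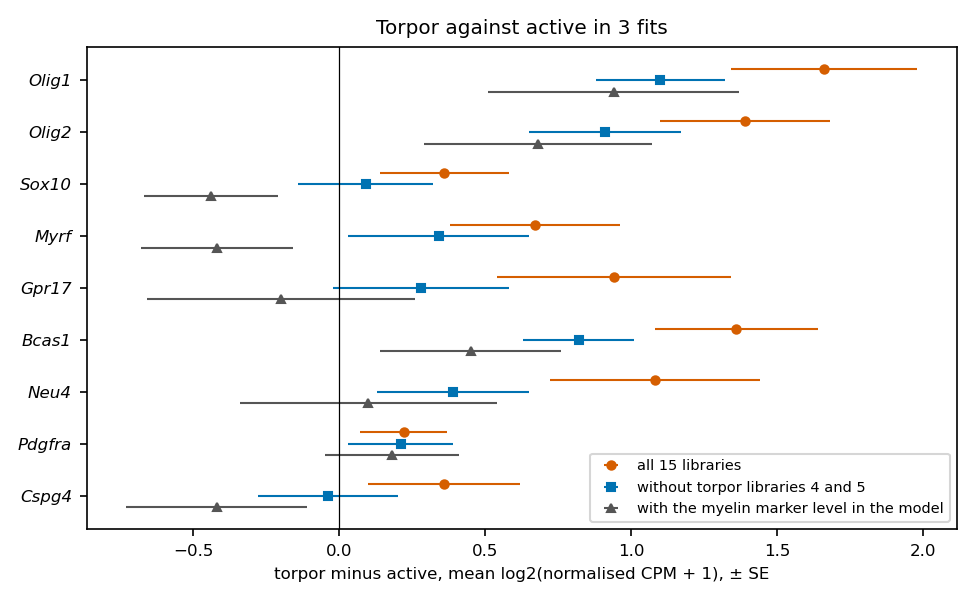
Torpor minus active for each gene (y axis) as the difference of mean log2(normalised CPM + 1) ± SE (x axis) in 3 fits, over all 15 libraries, without torpor libraries 4 and 5, and with the mean myelin marker level in the model. Olig1, Olig2 and Bcas1 stay above 0 in each fit, while Sox10, Myrf, Gpr17 and Cspg4 fall below 0 with the marker level in the model.

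Whether the precursor genes changed differently from Olig2 was tested on their ratio within each library. Olig2 had itself passed as higher in torpor, so any gene that changed little would also give a lower ratio there. Sox10, another factor of the lineage, stood in torpor at 1.37 times its active mean, near Cspg4 at 1.41 times. Ratios to Sox10 were not tested. The log2 ratio of Cspg4 to Olig2 was −0.08, −0.43, 0.18, 0.25 and 0.16 in active libraries and −0.10, −0.13, −0.06, −0.11 and −0.72 in IBA. In torpor it was −0.78, −1.02, −1.0, −1.19 and −1.06. Every torpor library therefore lay below every library of the other states. The ratio was lower in torpor by 1.03 than in the active state (mean −1.01 ± 0.15 against 0.02 ± 0.28), with a two-sided exact permutation p = 0.00794, the smallest the test can give, and 0.0357 after Benjamini-Hochberg adjustment over 9 ratio tests. Against IBA the difference was −0.79, with the same exact p and adjusted p. The separation did not rest on torpor libraries 4 and 5. Without them the differences were −0.95 and −0.71 and the groups still did not overlap. With fewer arrangements of the libraries, however, the adjusted exact p was 0.0804 for each. Both calls also ended when any 1 torpor library was left out (adjusted exact permutation p = 0.0714). The share of all genes whose ratio to Olig2 separates in this way was not computed.

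The corresponding differences for Pdgfra to Olig2 were −1.17 in torpor against active and −0.56 against IBA, with two-sided exact p = 0.0476 and 0.183, or 0.143 and 0.235 after adjustment. For Gpr17 to Olig2 they were −0.45 and −0.68, with exact p = 0.119 and 0.151 and an adjusted p of 0.235 for each. In IBA against active the 3 ratios differed by −0.61, −0.24 and 0.23 for Pdgfra, Cspg4 and Gpr17 (adjusted exact permutation p = 0.235, 0.295 and 0.548). A lower ratio shows that the genes changed unequally and does not show that Cspg4 stayed constant.

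**Figure D5:**
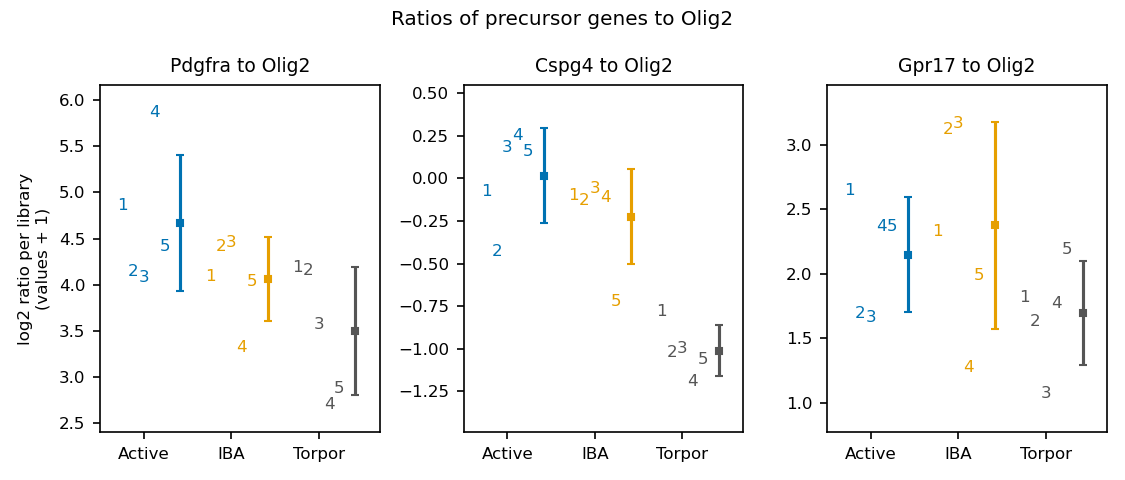
Log2 ratio per library of Pdgfra, Cspg4 and Gpr17 to Olig2 (y axes, each with its own range), computed from normalised CPM + 1 and grouped by state (x axis). Digits are replicate numbers and squares with bars the mean ± SD (n = 5). For Cspg4 the 5 torpor libraries lie between −1.19 and −0.78, below all other libraries.

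Other genes of the lineage were described by lists. Of 19 further transcription and chromatin factors, 4 rose in torpor against active and 1 fell, with a median log2 fold change of 0.17. Of all genes tested 9.73% passed as higher and 9.74% as lower. Hes1, a repressor downstream of Notch that in rodents holds back differentiation, rose by 0.93 ± 0.19, to 5.66 ± 1.92 from 2.40 ± 0.387 (limma adjusted p = 0.00284). Znf536 and St18, zinc finger factors, rose by 0.65 ± 0.16 and 0.93 ± 0.24, and Znf24, another zinc finger factor, fell by 0.29 on the log2 scale (adjusted p = 0.0107, 0.0112 and 0.0306). Without torpor libraries 4 and 5 only Hes1 of these 5 still passed (0.65, adjusted p = 0.0253). Hes1 was also higher in torpor than in IBA (0.82 ± 0.19, adjusted p = 0.0265), a call that ended without torpor libraries 4 and 5 (0.54 ± 0.18, adjusted p = 0.0928). Znf536 also passed in IBA against active (0.68 ± 0.16, adjusted p = 0.0453), with every value from 36.9 to 39.6 against 17.1 to 27.9.

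Of 13 other precursor markers tested, only Rlbp1 passed in torpor, where 9.73% of all genes tested passed as higher. The median of the list was 0.09. Rlbp1, a retinaldehyde-binding protein also known from Müller glia, rose by 1.31 ± 0.13 in torpor and by 1.09 ± 0.13 in IBA (limma adjusted p = 1.23e-05 and 7.75e-04), and it kept a change of 1.24 with the myelin marker level in the model (adjusted p = 0.00575). C1ql1, a secreted synaptic organiser, had a change of −0.87 ± 0.31 (adjusted p = 0.0561), and of −1.05 without torpor libraries 4 and 5 (adjusted p = 0.0352). In that fit 1096 of the 15501 genes tested passed as lower. Of 12 other genes of committed precursors and newly formed oligodendrocytes, none passed in limma-trend, 2 had an unadjusted p under 0.05, edgeR called 1 and DESeq2 2, with a median of 0.14. Of all 15501 genes tested, 5242 had an unadjusted p under 0.05, edgeR called 3119 and DESeq2 3713, which are larger shares than in this list. Gpr37, an orphan receptor, and Enpp6, a choline phosphodiesterase, had changes of 0.76 ± 0.26 and 0.74 ± 0.28 (adjusted p = 0.0522 and 0.0692). Without torpor libraries 4 and 5, Lims2 and Itpr2, a calcium channel of the endoplasmic reticulum, passed as lower (−0.63 and −0.58, adjusted p = 0.0427 and 0.0448), beside the same 1096 of all genes tested. Of 8 ligands, related receptors and sialidases of the members, none passed by limma-trend, edgeR or DESeq2, with a median of −0.16. At an unadjusted p under 0.05 there was 1, beside the 5242 of all genes tested.

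Cell division genes were included because precursors divide. Of 7 tested, 3 rose in torpor against active and none fell, where 9.73% of all genes tested passed as higher and 9.74% as lower. The median of the 7 was 0.71. The summed level of the 8 genes of this list in the deposited table was 78.4 to 111 in the active state. In torpor the sum was 83.7 to 108, so the ranges overlapped. Mcm5 and Mcm2, subunits of the replicative helicase, rose by 0.85 ± 0.12 and 0.71 ± 0.19, and Birc5, a mitotic survivin, by 0.72 ± 0.19 (limma adjusted p = 3.92e-04, 0.0139 and 0.0146). Without torpor libraries 4 and 5, 4 of the 7 passed as higher, beside 7.09% of all genes tested, and the median was 0.81. Ccnb1, a mitotic cyclin, then passed (0.81, adjusted p = 0.0312), and Mcm2 did not (0.44, adjusted p = 0.111). Mean levels when active and in torpor were 8.87 ± 1.08 and 16.8 ± 2.12 for Mcm5, and 1.04 ± 0.243 and 2.43 ± 0.967 for Mcm2. Which cells held these transcripts was not tested.

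Marker lists of other cell types in the tissue were counted in the same way, beside the 9.73% of all genes called higher and the 9.74% called lower. In torpor against active none of 7 fibroblast markers passed in limma-trend, edgeR or DESeq2, with a median of −0.85. At an unadjusted p under 0.05 there was 1, beside 5242 of the 15501 genes tested. Of 10 mural markers 4 fell (median −0.36), among them Kcnj8 by 1.01 on the log2 scale (adjusted p = 0.00186), and of 10 endothelial markers 3 fell (median −0.29). Of 8 astrocyte markers 1 fell, of 8 microglia markers 2 rose, and of 10 neuron markers 2 rose and 1 fell, with medians of −0.27, 0.42 and 0.29.

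The genes whose profiles over the 15 libraries were most like those of 3 members were found among 11439 genes by the root mean square difference of centred log2 levels. Adam15 (0.311), Mrpl54 (0.320), Vasn (0.329) and Sirt2 (0.330) were closest to Olig2, whose own root mean square deviation was 0.736. Sirt2 encodes a deacetylase abundant in myelin. These genes were chosen for their profiles over the same libraries, so their differences between states are not given as results. Fa2h, which makes the hydroxylated lipids of myelin, was closest to Gpr17 at 0.340, followed by Tgm3 (0.353), Pxdn (0.386) and Sema5b (0.39). For Pdgfra, with an own deviation of only 0.262, the closest were Ddah1 (0.166), Gatm (0.177), Gpatch1 (0.179) and Baz2b (0.180).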

How the data were processed

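Total RNA of 15 dissections was sequenced. Tools named in the submitters' processing notes include STAR 2.7.7a and, from Subread 2.0.1, featureCounts. Which build, gene models and strand setting they were run with is not given in the sources used here. Per the file headers, the per-library values are normalised CPM, a signal that the authors scaled. Whole reads were recovered from them, with a further factor of 0.936 to 1.04 per library beside its size, and with 100% of values within 0.1 read of a whole number. The authors deposited log2 fold changes, mean log2 levels, an F score, a p-value and a false discovery rate for each gene.

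Levels were tested with limma-trend (limma 3.58.1, R 4.3.3; robust settings) on log2(value + 1), all 15 libraries together, without covariates, two-sided, with Benjamini-Hochberg adjustment over all genes and a threshold of 0.05. Ratios used an exact permutation test of 5 against 5 libraries. edgeR 4.0.16 and DESeq2 1.42.0 were run on the recovered reads. Other alternatives were pseudocounts of 0.1 and 5, no filter, only the 10 libraries compared, a replicate block, scaling by library size, a myelin marker covariate and each library left out. Leaving out torpor libraries 4 and 5 together was added after seeing the data. The genes, lists and tests were chosen with earlier results of these data known.

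Named were the 9 genes, up to 4 genes per list with the smallest p in torpor against active, Pdgfa and Pdgfrb, and the 4 nearest profiles of Olig2, Gpr17 and Pdgfra. Lims2, which overlaps Gpr17, was named after its values were seen. Gene names and neighbours came from a RefSeq table of the assembly mIctTri1.hap1, in which no entry for Neu4 was matched. The fit was tested on simulated data. A further marker list is not reported here.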

Additional observations from a re-analysis of the deposited data

Results flagged for a closer look

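In each of the 3 states the 9 genes were checked for a library far from the other 4, which made 27 checks. Chance picks out about 1 in 20. There was 1 such case: Cspg4 in IBA library 4 stood at 8.23 normalised CPM, where the next library stood at 5.46 and the lowest at 4.54, so that its gap to the nearest library was 0.751 of the whole range. The same library was the highest of its state for 5 other genes of the lineage.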

How the results depend on the processing

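Over 21 alternatives, the calls of Olig1, Olig2 and Bcas1 in torpor against active ended only with the myelin marker covariate, and their adjusted p otherwise lay at or below 0.0317. The covariate left 757 called genes and 0 of the 9 in torpor against active and 18 in IBA. It turned Sox10 (−0.44), Myrf (−0.42), Gpr17 (−0.20) and Cspg4 (−0.42) in torpor against active, Sox10 (−0.24), Myrf (−0.04) and Cspg4 (−0.11) in IBA, and Sox10 (−0.21), Myrf (−0.38), Gpr17 (−0.35), Neu4 (−0.19) and Cspg4 (−0.31) in torpor against IBA. None of these passed.

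Without torpor libraries 4 and 5 together, Cspg4 was −0.04 in torpor against active, and Sox10 (−0.14), Myrf (−0.25), Gpr17 (−0.52), Neu4 (−0.45) and Cspg4 (−0.37) turned in torpor against IBA. IBA then had 357 called genes and 2 of the 9. The ratio of Cspg4 to Olig2 was −0.95 against active and −0.71 against IBA and no longer passed, because fewer arrangements remain.

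With only the 10 libraries compared, IBA had 385 calls and 3 of the 9, and torpor against IBA 262. DESeq2 called 862 and 1033, with 1 of the 9 in the latter. Scaling by library size gave 859 calls in torpor against IBA (92 higher, 767 lower, against 149 and 306), and in torpor against active 1053 higher and 2273 lower, against 1508 and 1510. It turned Cspg4 in torpor against IBA (−0.05). The shift of the median gene was at most −0.0807.

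The replicate block gave 2285, 37 and 155 calls, with 4, 0 and 0 of the 9. Same-numbered libraries correlated between −0.317 and 0.203 in their deviations, so no pairing by number was detected. The labels do not say whether the numbers pair the samples.

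Leaving out each library gave 2278 to 3315 calls in torpor against active, 26 to 162 in IBA (202 with all libraries, moving by over 1.5 times without active library 1, 2, 3 or 4 or IBA library 1, 3, 4 or 5) and 159 to 670 in torpor against IBA (455 with all libraries, moving by over 1.5 times without IBA library 1, 2, 3 or 5 or torpor library 2, 3 or 4). The ratio of Cspg4 to Olig2 ran from −1.14 to −0.97 against active and from −0.91 to −0.74 against IBA, and did not pass without any single torpor library (adjusted exact p = 0.0714). Changes that were near 0 turned sign: Pdgfra in IBA (−0.11 to 0.06) and, in torpor against IBA, Myrf (−0.06 to 0.31), Gpr17 (−0.17 to 0.37), Neu4 (−0.03 to 0.55) and Cspg4 (−0.14 to 0.22). At this depth, 3 to 18 reads per active library limit Neu4 most.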
